A study of Mus musculus with 9 samples.

Results

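Schwann cells and neurons of the lung were followed through 7 genes in RNA from the entire lung of E18.5 mouse embryos. Of these, 3 mark Schwann cells or other peripheral glia, Sox10, Ngfr and Cdh19, and 4 mark neurons, Tubb3, Prph, Elavl4 and Stmn2. They were taken by gene name from the deposited table, in which 7 of 27207 genes carry these names, and all 7 passed the filter on low counts that kept 19374 genes for testing. RNA was sequenced from 9 libraries in 3 groups of 3. The weak CKO group carried Tbx4-rtTA, Tet-O-Cre and the genotype Dnmt1-D/D, and its lungs were small (hypoplastic) and nothing more. The strong CKO group carried the same alleles, and its lungs were small and also bled throughout the lung tissue. The remaining lungs were wild type. The product of Dnmt1 is the enzyme that restores methylation on newly made DNA strands at cell division. Tbx4-rtTA is used to drive Tet-O-Cre in lung mesenchyme, so that Dnmt1 is lost there and not in all cells of the organ, and the sources used here give no doxycycline schedule. Libraries carry the names in their titles, in which MUT_W stands for weak CKO, MUT_S for strong CKO and WT for wild type.

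The nerves of the lung come from the neural crest and from the vagal and spinal sensory ganglia. Neural crest cells enter the foregut and the lung buds with the vagus nerve and form small ganglia along the airways, and Schwann cells accompany the axons. SOX10 is the transcription factor that keeps neural crest cells in the glial line, and Schwann cell precursors also carry the neurotrophin receptor NGFR and the cadherin CDH19. Neurons use the tubulin TUBB3 and the filament protein peripherin (PRPH) to build axons, the RNA-binding protein ELAVL4 to stabilise neuronal transcripts, and stathmin 2 (STMN2) to regulate microtubules in growing axons.

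The column totals ran from 25607595 to 33156732 counts, and levels are given as CPM, the count of a gene scaled to a common library size with TMM factors. Dnmt1 itself had 59.1, 69.1 and 80.6 CPM in weak CKO lungs, 62.0, 78.7 and 65.1 CPM in strong CKO lungs and 79.1, 121.0 and 97.2 CPM in wild-type lungs. Its log2 change was -0.51 ± 0.17 in weak CKO lungs (SE, edgeR adjusted p = 0.0727) and -0.53 ± 0.17 in strong CKO lungs (adjusted p = 0.0433). The levels of the weak CKO and wild-type libraries overlapped, and those of the strong CKO libraries lay below all wild-type ones. The counts cover the whole gene and not the deleted part alone. Lung markers were present in every library, with the surfactant gene Sftpc never below 5750 CPM and the lung epithelial factor Nkx2-1 never below 281 CPM. Haemoglobin genes took 0.3702% to 0.4196% of the counts in weak CKO libraries, 0.6704% to 1.2513% in strong CKO libraries and 0.3687% to 0.6687% in wild-type libraries.

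DNMT1 acts on CG pairs, and the promoters of 4 of the 7 genes are shown to let a reader see how many each holds, with the CG pairs in capitals. A promoter here is the 250 bases before a transcription start in RefSeq, and bases that lie within the gene's span in GENCODE vM21 are counted but not printed. The sequences are from RefSeq on GRCm38.p6, are written 5′ to 3′ on the strand of the gene, and no methylation was measured in these lungs. Of all 32851 promoters in the same table, searched for the letters CG, which read the same on both strands, 92.1% held at least 1 such pair in these 250 bases and the median was 6. The Ngfr promoter, at chr11:95587699-95587948 on the minus strand, held 16 CG pairs, a count that 25.4% of all promoters reached, and 213 of its bases are printed, chr11:95587736-95587948. The Tubb3 promoter, at chr8:123411303-123411552 on the plus strand, held 21 CG pairs, a count that 16.3% of all promoters reached, and 121 of its bases are printed, chr8:123411303-123411423. The Prph promoter, at chr15:99054924-99055173 on the plus strand, held 7, a count that 46.3% reached. The outermost of 4 Elavl4 starts, at chr4:110351912-110352161 on the minus strand, held 14, a count that 29.4% reached, and the other 3 starts held between 3 and 5. Sox10, Cdh19 and Stmn2 are named only.
Ngfr: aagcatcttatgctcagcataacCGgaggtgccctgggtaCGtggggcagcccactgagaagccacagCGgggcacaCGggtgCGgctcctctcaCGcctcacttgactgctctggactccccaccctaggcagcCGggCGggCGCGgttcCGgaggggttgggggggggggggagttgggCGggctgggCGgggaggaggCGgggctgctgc
Tubb3: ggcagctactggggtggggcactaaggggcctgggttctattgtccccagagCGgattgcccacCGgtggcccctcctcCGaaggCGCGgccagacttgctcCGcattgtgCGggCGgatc
Prph: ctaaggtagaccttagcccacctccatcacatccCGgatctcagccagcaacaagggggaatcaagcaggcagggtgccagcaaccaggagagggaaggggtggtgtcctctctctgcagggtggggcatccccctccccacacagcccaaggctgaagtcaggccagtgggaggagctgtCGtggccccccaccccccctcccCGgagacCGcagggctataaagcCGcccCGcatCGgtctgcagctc
Elavl4: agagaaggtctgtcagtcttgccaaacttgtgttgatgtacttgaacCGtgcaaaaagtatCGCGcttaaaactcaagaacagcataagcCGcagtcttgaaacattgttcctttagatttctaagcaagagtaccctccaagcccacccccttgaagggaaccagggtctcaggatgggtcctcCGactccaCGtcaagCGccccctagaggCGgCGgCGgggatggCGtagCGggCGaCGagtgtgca

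All 3 glial genes rose in both knockout groups, by very different amounts. Sox10 rose least and Cdh19 most, and in each of the 3 genes every knockout library stood above every wild-type library. Whole lungs were sequenced, so a different number of cells of a type and a different amount of RNA per cell cannot be told apart. Sox10 (ENSMUSG00000033006, chr15:79154908-79165240, minus strand, GRCm38) had 1.16, 1.04 and 0.909 CPM in weak CKO lungs, 1.32, 0.892 and 0.97 CPM in strong CKO lungs and 0.314, 0.194 and 0.249 CPM in wild-type lungs. Its 6 knockout libraries lay close together and far above the wild-type ones. These levels rested on 29 to 35 reads in each weak CKO library, 25 to 35 in each strong CKO library and 6 to 9 in each wild-type library. The log2 change was 2.03 ± 0.30 in weak CKO lungs (SE, edgeR quasi-likelihood test with Benjamini-Hochberg adjustment over all tested genes, adjusted p = 0.00174) and 2.06 ± 0.30 in strong CKO lungs (adjusted p = 0.000995).

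Ngfr, the receptor that binds all neurotrophins and marks Schwann cell precursors and non-myelinating Schwann cells, was measured at chr11:95568818-95587735 on the minus strand (ENSMUSG00000000120). It had 3.51, 5.28 and 4.14 CPM in weak CKO lungs, 3.95, 5.6 and 4.85 CPM in strong CKO lungs and 0.558, 0.291 and 0.280 CPM in wild-type lungs. The lowest knockout library, MUT_W_265_2, was still several times the highest wild-type library, WT_265_1. Its log2 change was 3.52 ± 0.30 in weak CKO lungs (adjusted p = 4.93e-05) and 3.67 ± 0.30 in strong CKO lungs (adjusted p = 2.91e-05).

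Cdh19 encodes a type II cadherin of Schwann cell precursors and was measured at chr1:110888326-110977584 on the minus strand (ENSMUSG00000047216). It had 29.7, 39.9 and 24.5 CPM in weak CKO lungs, 29.8, 28.9 and 42.0 CPM in strong CKO lungs and 0.209, 0.355 and 0.124 CPM in wild-type lungs. Per length of exon its mean was the lowest of the 7 genes in wild-type lungs and the highest in both knockout groups. The wild-type levels rested on 6, 11 and 4 reads, so the size of the ratio is less certain than its direction. The ratio of the group means was 137 in weak CKO lungs and 146 in strong CKO lungs over wild type. On the log2 scale the change of Cdh19 was 7.07 ± 0.34 in weak CKO lungs (adjusted p = 4.31e-06) and 7.17 ± 0.34 in strong CKO lungs (adjusted p = 3.26e-06). In GENCODE vM21, Gm38255 and Gm36944 lie within the span of Cdh19 on the same strand, and the sources used here do not say how reads in shared positions were assigned.

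**Figure D1:**
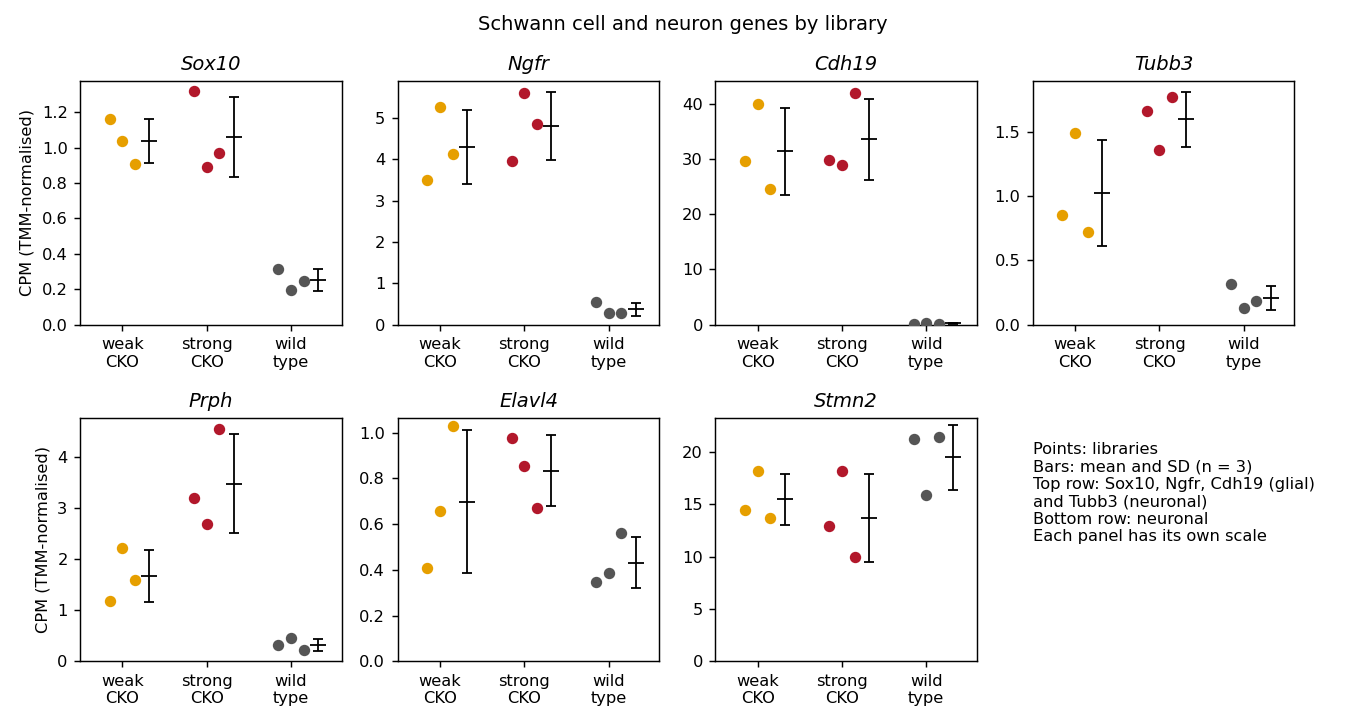
Level of each of the 7 genes in CPM (vertical axis, linear, own scale per panel) in each library of the weak CKO, strong CKO and wild-type groups. Points are libraries and bars are the group mean and SD (n = 3). Knockout points of Sox10, Ngfr, Cdh19, Tubb3 and Prph all lie above the wild-type points, Elavl4 does so in strong CKO only, and Stmn2 overlaps with wild type in both groups.

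Of the 4 neuronal genes, Tubb3 and Prph rose in both knockout groups, and Elavl4 and Stmn2 did not pass the test in either. Tubb3, the neuronal β-tubulin, had 0.851, 1.49 and 0.721 CPM in weak CKO lungs, 1.66, 1.36 and 1.77 CPM in strong CKO lungs and 0.314, 0.129 and 0.187 CPM in wild-type lungs. It lies at chr8:123411424-123422015 on the plus strand (ENSMUSG00000062380). MUT_W_268_3 was as high as the strong CKO libraries, and the other 2 weak CKO libraries stood between them and wild type. Tubb3 rose by 2.28 ± 0.40 on the log2 scale in weak CKO lungs (adjusted p = 0.00459) and 2.91 ± 0.40 in strong CKO lungs (adjusted p = 0.000625). The readthrough gene Gm20388 overlaps it on the same strand and other β-tubulin transcripts are close to it in sequence, so its reads are uncertain where these share bases.

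Prph, the intermediate filament protein of peripheral neurons, lies at chr15:99055174-99058978 on the plus strand (ENSMUSG00000023484). It had 1.19, 2.21 and 1.60 CPM in weak CKO lungs, 3.20, 2.68 and 4.55 CPM in strong CKO lungs and 0.314, 0.452 and 0.218 CPM in wild-type lungs. The 3 groups did not overlap, with strong CKO highest and wild type lowest. Prph rose on the log2 scale by 2.34 ± 0.36 in weak CKO lungs (adjusted p = 0.00224) and 3.39 ± 0.36 in strong CKO lungs (adjusted p = 0.000139). On log2(RPKM + 1) values, where low genes are compressed, limma gave a weak CKO change of 0.26 with an adjusted p of 0.0508, which ends the call.

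Elavl4, also known as HuD, lies at chr4:110203722-110351909 on the minus strand (ENSMUSG00000028546). It had 0.409, 0.656 and 1.03 CPM in weak CKO lungs, 0.979, 0.856 and 0.669 CPM in strong CKO lungs and 0.349, 0.388 and 0.560 CPM in wild-type lungs. Weak CKO libraries overlapped with wild type, and strong CKO libraries lay above it by a small margin, at 20 to 26 reads in strong CKO against 10 to 18 in wild-type libraries. The log2 change was 0.69 ± 0.38 in weak CKO lungs (adjusted p = 0.263) and 0.93 ± 0.38 in strong CKO lungs (adjusted p = 0.0941).

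Stmn2 differed from the other 6 genes in that it was already well expressed in wild-type lungs and its estimates pointed down. It lies at chr3:8509360-8561606 on the plus strand (ENSMUSG00000027500). Stmn2 had 14.5, 18.2 and 13.7 CPM in weak CKO lungs, 12.9, 18.2 and 9.93 CPM in strong CKO lungs and 21.2, 15.9 and 21.4 CPM in wild-type lungs. In both comparisons WT_268_1 lay among the knockout libraries. The log2 change was -0.33 ± 0.21 in weak CKO lungs (adjusted p = 0.344) and -0.51 ± 0.21 in strong CKO lungs (adjusted p = 0.108). Without MUT_S_268_4, which was the highest of its group, Stmn2 fell in strong CKO lungs, with a log2 change of -0.77 and an adjusted p of 0.0167.

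**Figure D2:**
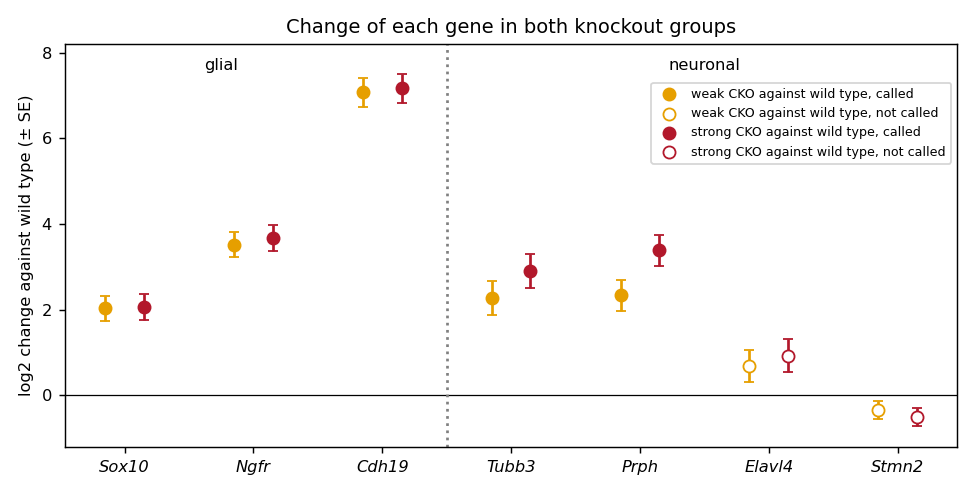
Log2 change against wild type (vertical axis, bars are the SE of the edgeR fit) of the 3 glial and 4 neuronal genes, with weak CKO left of strong CKO for each gene. Filled points passed an adjusted p of 0.05. The glial genes ran from 2.03 to 7.17 and were all called, and the neuronal genes ran from -0.51 to 3.39 with Tubb3 and Prph called.

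Counted together, 5 of the 7 genes rose in weak CKO lungs, 3 of 3 glial and 2 of 4 neuronal, and 0 fell by edgeR or DESeq2. Over all tested genes 14.5% were called in that comparison, 9.09% as higher and 5.38% as lower. In strong CKO lungs the same 5 of 7 rose and 0 fell by edgeR or DESeq2, where 25.6% of all genes were called, 14.6% as higher and 11.0% as lower. At an unadjusted p under 0.05 the strong CKO count was 7 of 7, with Elavl4 higher and Stmn2 lower, against 38.1% of all tested genes, and the weak CKO count was 5, against 28.6%. Every weak CKO library stood above every wild-type library for 5 of the 7 genes, against 17.7% of all tested genes. The count for strong CKO was 6 of 7, Elavl4 included, against 22.7%. The median log2 change of the 7 genes was 2.28 in weak CKO and 2.91 in strong CKO lungs, and over all tested genes it was -0.008 in weak CKO and -0.001 in strong CKO lungs. The members were chosen with earlier results of these data known, and both comparisons share the 3 wild-type libraries, so these counts describe the 7 genes only. The count of 5 stayed between 4 and 6 under every alternative setting run.

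Between strong and weak CKO lungs 0 of the 7 genes were called by edgeR, by DESeq2 or by limma, where edgeR called 1 gene of all tested, or 0.00516%. At an unadjusted p under 0.05 the edgeR count was 1 of 7, Prph, against 5.67% of all tested genes. Its log2 difference, strong over weak, was 1.06 ± 0.30 (unadjusted p = 0.00507, adjusted p = 0.873), and every strong CKO library stood above every weak CKO library, as 6.70% of all tested genes did. Tubb3 had the next largest estimate, 0.64 ± 0.33, with MUT_W_268_3 inside the strong CKO range. The 3 glial genes were nearly level between the phenotypes, at 0.03 ± 0.26 for Sox10, 0.16 ± 0.24 for Ngfr and 0.10 ± 0.21 for Cdh19. These intervals are wide, and a p above the threshold does not show that strong and weak CKO lungs are alike.

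Whether the genes changed by the same factor was tested pair by pair, in a test added after their values were seen. For each of 21 pairs the log2 ratio of both genes was taken within each library and compared between the 6 knockout and the 3 wild-type libraries with a two-sided exact permutation test, which has 84 arrangements and a smallest possible p of 0.0119. The ratio differed in 17 of 21 pairs at an adjusted p under 0.05 over the pairs, that is 3 of 3 glial pairs, 5 of 6 neuronal pairs and 9 of 12 mixed pairs. The pairs share genes, so their outcomes are not independent of each other. Every pair with Cdh19 or Stmn2 was among the 17, and these genes were already known to have the highest and the lowest log2 change. The share among pairs of other genes was not tested, so the count of 17 only describes these pairs. The Sox10 to Cdh19 log2 ratio averaged -4.85 ± 0.35 in knockout lungs and 0.16 ± 0.76 in wild-type lungs (SD, n = 6 and n = 3, exact p = 0.0119, adjusted p = 0.0179). These are both Schwann cell genes, yet their ratio moved by -5.02 on the log2 scale. Prph to Stmn2, both neuronal, averaged -2.57 ± 0.87 in knockout and -5.66 ± 0.66 in wild-type lungs (exact p = 0.0119, adjusted p = 0.0179). The 4 pairs without a separated ratio joined Sox10, Tubb3 and Prph in every combination, plus Ngfr with Prph. Their differences were -0.49 for Sox10 to Tubb3 (exact p = 0.155), -0.84 for Sox10 to Prph (exact p = 0.131), -0.36 for Tubb3 to Prph (exact p = 0.333) and 0.76 for Ngfr to Prph (exact p = 0.119). Without WT_549_2 the design allows 28 arrangements and no p below 0.0357, and 15 pairs at that value gave an adjusted p of 0.05 and a count of 0. Each of the other 8 libraries left out in turn gave counts of 14 to 17.

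Within the groups no order of libraries was common to all 7 genes, but in weak CKO lungs most of them were highest in the same library. MUT_W_268_3 was the highest weak CKO library for 5 genes, Ngfr, Cdh19, Tubb3, Prph and Stmn2, whereas Sox10 was highest in MUT_W_265_2 and Elavl4 in MUT_W_549_3. In strong CKO lungs MUT_S_860_3 was highest for Cdh19, Tubb3 and Prph, MUT_S_265_5 for Sox10 and Elavl4, and MUT_S_268_4 for Ngfr and Stmn2. In wild-type lungs WT_265_1 was highest for Sox10, Ngfr and Tubb3, WT_268_1 for Cdh19 and Prph, and WT_549_2 for Elavl4 and Stmn2. Pearson correlations of log2 CPM after subtracting each group's mean, over 9 libraries and 21 pairs, ran from -0.53 to 0.86 with a median of 0.15, and 12 of the 21 were above 0. With an exact permutation test within groups (216 arrangements, smallest possible p 0.00463) 1 pair had an unadjusted p under 0.05 and 0 passed adjustment over the 21 pairs. That pair was Cdh19 with Prph (r = 0.856, exact p = 0.0231, adjusted p = 0.486, and rho = 0.85, exact p = 0.0417, adjusted p = 0.632), and r was 0.771 without the 2 libraries farthest from the median of Cdh19. The 3 glial pairs had r between -0.25 and 0.16. The low counts of Sox10, Tubb3, Prph and Elavl4 limit what such correlations can show. Even at the smallest possible p, 1 pair alone could not have passed adjustment over the 21 pairs. The count of 0 therefore does not show that the genes vary apart from each other.

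**Figure D3:**
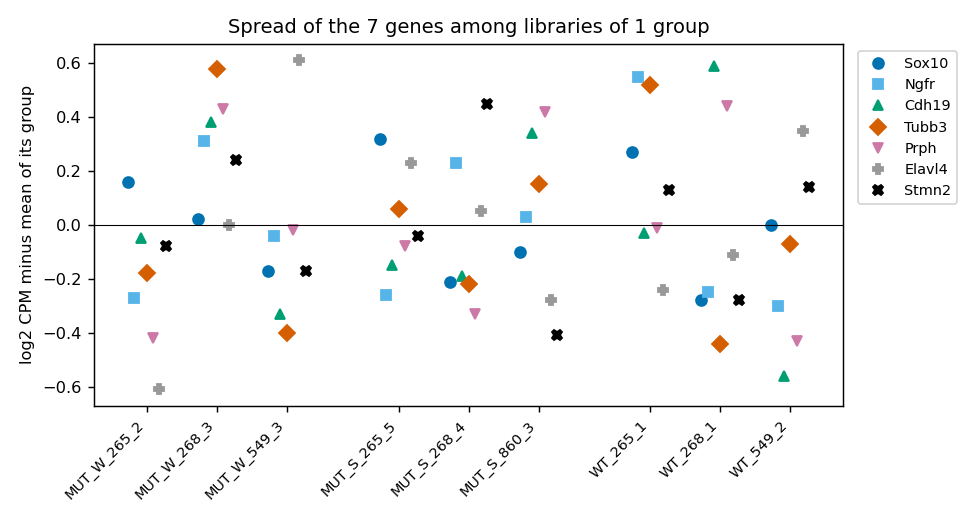
Log2 CPM of each gene minus the mean of its own group (vertical axis) in each of the 9 libraries (horizontal axis, names as in the titles), in the order weak CKO, strong CKO and wild type. Symbols are genes. In MUT_W_268_3 all genes but Elavl4, which is close to 0, lie above 0, in MUT_W_265_2 only Sox10 lies above it, in MUT_W_549_3 only Elavl4 does, and in each strong CKO and wild-type library some genes lie above 0 and some below.

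Levels of different genes were compared per length, as CPM divided by the kilobases of exon in GENCODE vM21. In weak CKO lungs Cdh19 led with 7.33 ± 1.83, followed by Stmn2 at 2.76 ± 0.429, Ngfr at 1.25 ± 0.261, Prph at 0.833 ± 0.256, Tubb3 at 0.547 ± 0.221, Sox10 at 0.34 ± 0.0409 and Elavl4 at 0.13 ± 0.0585 (CPM per kb, SD, n = 3). Neighbours whose libraries overlapped there were Ngfr with Prph and Prph with Tubb3. In strong CKO lungs the order was Cdh19 at 7.84 ± 1.70, Stmn2 at 2.44 ± 0.744, Prph at 1.74 ± 0.483, Ngfr at 1.39 ± 0.239, Tubb3 at 0.854 ± 0.115, Sox10 at 0.347 ± 0.0744 and Elavl4 at 0.155 ± 0.029. Prph overlapped with Stmn2 on one side and with Ngfr on the other. In wild-type lungs Stmn2 led with 3.48 ± 0.554, and the other 6 genes lay between 0.164 ± 0.0589 for Prph and 0.0537 ± 0.0273 for Cdh19, each overlapping with its neighbour. In wild-type lungs, then, only Stmn2 stood apart by level, and in both knockout groups the 7 genes were spread over a wide range. The deposited RPKM used a length summed over all transcripts, which is 5.72 times the exon length for Elavl4 and nearly equal to it for Ngfr, and it placed Ngfr next after Stmn2 in wild-type lungs.

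Most other glial genes were not called, unlike the 3 above. For this list and those below, the shares called over all tested genes were 9.09% higher and 5.38% lower in weak CKO lungs. In strong CKO lungs these shares were 14.6% higher and 11.0% lower. Of 26 tested genes of a Schwann cell and glial list, with the 3 left out, 1 rose and 2 fell in weak CKO lungs, with a median log2 change of 0.11, and 6 rose and 4 fell in strong CKO lungs, with a median of 0.11. Foxd3, a neural crest factor, rose in strong CKO lungs by 1.90 ± 0.49 (adjusted p = 0.0165), at under 1 CPM in every library, and is named here after its values were seen. Scn7a, a sodium channel present in Schwann cells and at high levels in this whole organ, fell by 0.77 on the log2 scale in weak CKO (adjusted p = 0.0258) and by 1.28 in strong CKO lungs (adjusted p = 0.00138). Adgrg6, a receptor needed for Schwann cell myelination and also expressed in endothelium, fell by 0.74 in weak CKO (adjusted p = 0.0381) and by 1.14 in strong CKO lungs (adjusted p = 0.00381). The summed level of these 27 genes, to which Scn7a adds more than any other, was 2380 to 2560 CPM in weak CKO, 1620 to 2280 CPM in strong CKO and 3330 to 3930 CPM in wild-type libraries.

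Other pan-neuronal genes moved in both directions. With the 4 genes left out, 5 of 24 tested rose and 2 fell in weak CKO lungs, with a median log2 change of 0.07, and 6 rose and 2 fell in strong CKO lungs, with a median of 0.08. Dcx, a microtubule protein of migrating young neurons, had 14.4, 16.3 and 10.4 CPM in weak CKO lungs, 18, 15 and 17.5 CPM in strong CKO lungs and 1.12, 2.71 and 2.05 CPM in wild-type lungs. It rose by 2.80 ± 0.28 in weak CKO (adjusted p = 0.000197) and by 3.09 ± 0.28 in strong CKO lungs (adjusted p = 7.81e-05), a change close to that of Prph. Mapt, which encodes the axonal protein tau, went the other way, with log2 changes of -1.64 ± 0.26 in weak CKO (adjusted p = 0.00494) and -2.42 ± 0.27 in strong CKO lungs (adjusted p = 0.000529). Scn3a, a voltage-gated sodium channel, fell by 1.51 in weak CKO (adjusted p = 0.000467) and by 1.43 in strong CKO lungs (adjusted p = 0.000414). Dpysl3, a growth cone protein, rose by 0.55 in weak CKO (adjusted p = 0.000458) and by 0.56 in strong CKO lungs (adjusted p = 0.000271). The summed level of these 26 genes was 263 to 272 CPM in weak CKO libraries. It was 252 to 277 CPM in strong CKO and 287 to 309 CPM in wild-type libraries. The fall of Mapt alone was larger, from a wild-type mean of 105 CPM to 33.5 (weak CKO) and 19.6 (strong CKO). Dpysl3 went the other way, from a wild-type mean of 67.6 CPM to 99.1 (weak CKO) and 99.6 (strong CKO). The lower sums therefore do not show a general fall of pan-neuronal genes. Of the 26 genes, 9 stayed under 1 CPM in every library.

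**Figure D4:**
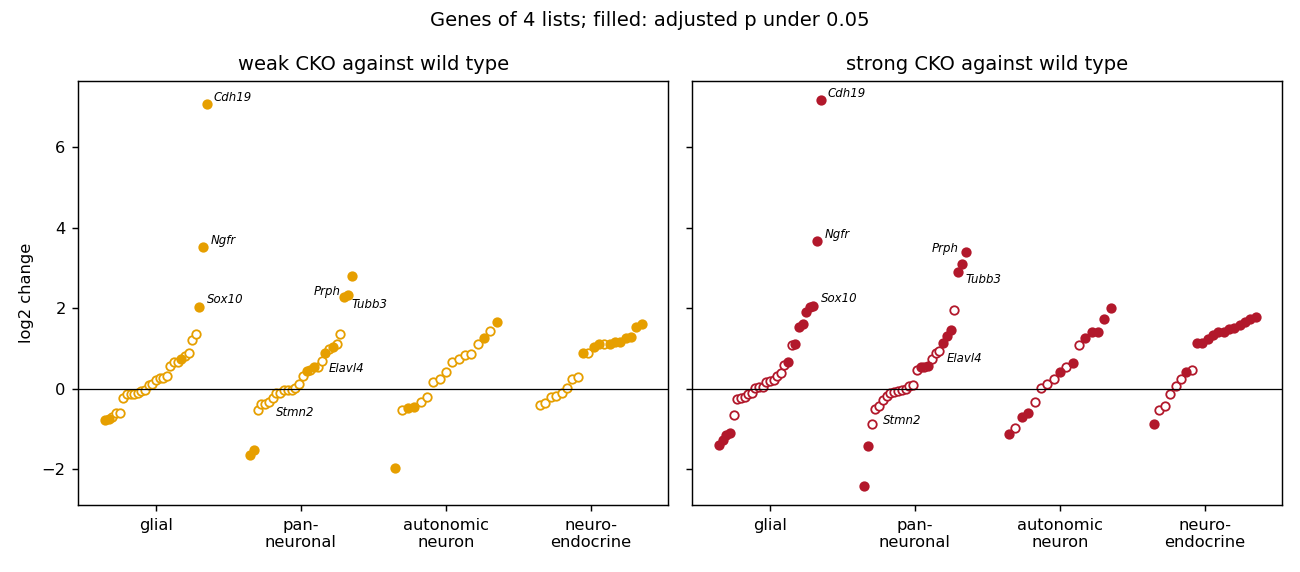
Log2 change of each tested gene of 4 lists (vertical axis) in weak CKO and in strong CKO lungs against wild type, with genes sorted by size within a list. Filled points passed an adjusted p of 0.05, and the 7 genes are named. Cdh19 and Ngfr stand above the other glial genes, whose median without the 3 named ones was 0.11 in both panels, and the neuroendocrine genes have medians of 0.95 in weak CKO and 1.2 in strong CKO.

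Genes of autonomic ganglion neurons gave 2 higher and 3 lower of 17 tested in weak CKO lungs and 7 higher and 3 lower in strong CKO lungs. All tested genes gave 9.09% higher and 5.38% lower in weak CKO, and 14.6% higher and 11.0% lower in strong CKO lungs. Nos1, the nitric oxide synthase of inhibitory airway neurons, rose by 1.65 ± 0.24 in weak CKO (adjusted p = 0.00163) and by 1.73 ± 0.24 in strong CKO lungs (adjusted p = 0.000776). Isl1, a factor of sympathetic and sensory neurons, had a log2 change of 1.44 in weak CKO lungs (adjusted p = 0.0665) and rose by 2.02 in strong CKO lungs (adjusted p = 0.00874). Gata2, a factor of sympathetic neurons that is also found in blood and endothelial cells, fell by 0.47 in weak CKO (adjusted p = 0.0191) and by 0.61 in strong CKO lungs (adjusted p = 0.00342). Dbh, the enzyme that makes noradrenaline, named after its values were seen, fell by 1.98 in weak CKO lungs (adjusted p = 0.0197) and had a log2 change of -0.97 in strong CKO lungs (adjusted p = 0.125). Of the 28 listed genes measured, 15 stayed under 1 CPM everywhere, Isl1 and Dbh among them. Dbh had 5, 2 and 5 reads in the weak CKO libraries and 20, 12 and 15 in the wild-type ones. Isl1 had 3, 4 and 8 reads in the wild-type libraries.

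Among neurotrophic ligands and receptors, 1 of 25 rose and 1 fell in weak CKO lungs, and 3 rose and 3 fell in strong CKO lungs. Beside these stand 9.09% higher and 5.38% lower of all tested genes in weak CKO, and 14.6% and 11.0% in strong CKO lungs. The endothelin receptor Ednrb, which guides neural crest cells and is abundant in lung vessels, fell by 0.64 in weak CKO (adjusted p = 0.0126) and by 1.07 in strong CKO lungs (adjusted p = 0.000532). Its ligand Edn3 had a log2 change of -0.30 in weak CKO lungs (adjusted p = 0.13) and fell by 0.50 in strong CKO lungs (adjusted p = 0.0124).

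Close relatives of the 7 genes moved in both directions, as did all tested genes. Of those, 9.09% rose and 5.38% fell in weak CKO, and 14.6% rose and 11.0% fell in strong CKO lungs. Members included, 2 of 9 type II cadherins tested rose and 1 fell in each knockout group, and 3 of 8 intermediate filament genes rose in each. Of 8 β-tubulins, 2 rose in weak CKO lungs, and 2 rose and 1 fell in strong CKO lungs. Among type II cadherins Cdh22 rose with Cdh19, by 2.6 ± 0.23 in weak CKO (adjusted p = 6.73e-05) and by 2.70 ± 0.23 in strong CKO lungs (adjusted p = 4.07e-05), while Cdh5, the cadherin of endothelium, fell by 0.43 in weak CKO (adjusted p = 0.0433) and by 0.80 in strong CKO lungs (adjusted p = 0.00143). Sox9, a SoxE relative of Sox10 with roles in lung epithelium and cartilage, fell by 0.50 in weak CKO (adjusted p = 0.047) and by 0.47 in strong CKO lungs (adjusted p = 0.0378). Of the β-tubulins, Tubb4b, which is found in cilia and many cell types, rose by 0.45 in weak CKO (adjusted p = 0.0116) and by 0.65 in strong CKO lungs (adjusted p = 0.000984). Tubb4a, a mainly neural and glial form, had a log2 change of -0.76 in weak CKO lungs (adjusted p = 0.0621) and fell by 1.19 in strong CKO lungs (adjusted p = 0.00638). Nefm, a neurofilament protein like Prph in structure, rose by 1.03 ± 0.27 in weak CKO (adjusted p = 0.0296) and by 1.46 ± 0.27 in strong CKO lungs (adjusted p = 0.00314). Elavl3, a neuronal relative of Elavl4, had a log2 change of 1.11 in weak CKO lungs (adjusted p = 0.0768) and rose by 1.31 in strong CKO lungs (adjusted p = 0.0266). Its level stayed under 1 CPM in every library. Stmn1, the general stathmin, had log2 changes of -0.07 in weak CKO (adjusted p = 0.777) and 0.01 in strong CKO lungs (adjusted p = 0.952).

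Of the tested genes next to the 7 on their chromosomes, Dmrta2 was called in weak CKO lungs, and Dmrta2, Agbl4 and Troap in strong CKO lungs. Over all tested genes 14.5% were called in weak CKO and 25.6% in strong CKO lungs. Mc1r, Cdh7 and both neighbours of Stmn2 had too few reads to be tested. With so few neighbours, their calls cannot be set apart from those shares. Gm10863, 800 bases from Sox10, had log2 changes of 1.09 ± 0.45 in weak CKO (adjusted p = 0.133) and 0.79 ± 0.46 in strong CKO lungs (adjusted p = 0.236). On the other side Polr2f, an RNA polymerase subunit gene 3133 bases from Sox10, had log2 changes of 0.00 in weak CKO (adjusted p = 0.99) and 0.03 in strong CKO lungs (adjusted p = 0.85). Nxph3, beside Ngfr, had 0.73 ± 0.26 in weak CKO (adjusted p = 0.0944) and 0.48 ± 0.27 in strong CKO lungs (adjusted p = 0.209). The estimates for Gm10863 and Nxph3 point the same way as the member without passing the test. Def8, 1511 bases beyond Tubb3, had 0.11 in weak CKO (adjusted p = 0.323) and 0.12 in strong CKO lungs (adjusted p = 0.194), and Mc1r, 679 bases before Tubb3, had at most 11 reads in any library. Cdh7, the cadherin gene nearest to Cdh19, stayed at 4 reads or fewer in every library. Those that were called lay beside Elavl4 and Prph. Dmrta2 near Elavl4 rose by 1.69 in weak CKO (adjusted p = 0.0187) and by 1.75 in strong CKO lungs (adjusted p = 0.00962). In strong CKO lungs Agbl4 rose by 0.80 beside Elavl4 (adjusted p = 0.0399), and Troap rose by 0.50 beside Prph (adjusted p = 0.0437).

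The genes whose log2 CPM followed each member most closely were found by Pearson r over the 9 libraries among 15614 genes, as a description in which the group difference itself carries most of r. For Sox10 they were Tex14, Slc25a31 and D1Pas1 (r = 0.994, 0.992 and 0.992). For Cdh19 they were Gm40652, Kcnh1 and Dazl (r = 0.998, 0.997 and 0.997), and for Ngfr Serpinb1c, Mgl2 and Gm45121 (r = 0.993, 0.992 and 0.992). Tex14 and Dazl act in germ cells, and Slc25a31 and Dazl are on the list of germline genes used below. None of these 9 is on the glial list, but for so short a list among 15614 genes that was likely in advance. It therefore does not bear on which cells carry the RNA. The nearest genes were 9130023H24Rik, Tnfrsf26 and Trpm5 for Tubb3 (r = 0.992, 0.99 and 0.989) and Ccna1, Nup37 and Wasf1 for Prph (r = 0.994, 0.992 and 0.988). Elavl4 was closest to 6430531B16Rik, Mis12 and Coq7 (r = 0.973, 0.964 and 0.96). Stmn2 was closest to Prkacb, A930033H14Rik and 1810062G17Rik (r = 0.957, 0.952 and 0.933).

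Markers of other cell types moved in the same lungs. As above, 9.09% of all tested genes rose and 5.38% fell in weak CKO lungs, and 14.6% rose and 11.0% fell in strong CKO lungs. Of 20 pulmonary neuroendocrine genes, 10 rose in weak CKO lungs and 13 rose and 1 fell in strong CKO lungs, with median log2 changes of 0.95 in weak CKO and 1.2 in strong CKO lungs. Chga, a secretory granule protein of neuroendocrine cells, rose by 1.60 ± 0.31 in weak CKO (adjusted p = 0.00702) and by 1.74 ± 0.31 in strong CKO lungs (adjusted p = 0.00259). Its level stayed under 1 CPM in every library. Uchl1, found in both neuroendocrine cells and neurons, rose by 0.88 ± 0.15 in weak CKO (adjusted p = 0.00444) and by 1.15 ± 0.15 in strong CKO lungs (adjusted p = 0.000582). The summed level of the 20 genes was nevertheless 274 to 300 CPM in weak CKO, at most 290 CPM in strong CKO and 312 to 332 CPM in wild-type libraries. Germline genes that DNA methylation silences rose in 18 of 20 cases in both groups, with summed levels of 373 to 601 CPM in weak CKO, 518 to 701 CPM in strong CKO and 26.7 to 29.0 CPM in wild-type libraries. Dazl, an RNA-binding protein of germ cells, rose by 9.63 in weak CKO lungs (adjusted p = 1.45e-06) and by 9.93 in strong CKO lungs (adjusted p = 9.53e-07). Of 11 tested striated muscle genes, 3 rose and 2 fell in weak CKO lungs and 6 rose and 1 fell in strong CKO lungs, with sums of 287 to 385 CPM in weak CKO, 280 to 446 CPM in strong CKO and 258 to 292 CPM in wild-type libraries. Of 5 tested central nervous system genes, 1 rose in weak CKO and 2 in strong CKO lungs, with sums of 49.8 to 83.1 CPM in weak CKO, 70.1 to 80.1 CPM in strong CKO and 25.9 to 48.5 CPM in wild-type libraries. Olig1, Olig2, Slc17a6, Neurod6, Opalin and Neurod1 of that list have no row under these names in the deposited table. Of 4 tested melanocyte genes, 2 fell in both groups, Kit and Ednrb, with sums of 274 to 297 CPM in weak CKO, 205 to 266 CPM in strong CKO and 405 to 485 CPM in wild-type libraries, and Dct, Tyr and Mlana, which define melanocytes, stayed under 1 CPM everywhere. Of 13 erythroid genes, 1 rose in strong CKO lungs, Hba-x, with sums of 3870 to 4510 CPM in weak CKO, 6860 to 12800 CPM in strong CKO and 4060 to 7520 CPM in wild-type libraries. The part of these other cell types in the levels of the 7 genes was not tested. With haemoglobin genes left out of the library sizes, the same 5 genes rose in both groups.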

How the data were processed

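RNA-seq was analysed from 9 whole-lung libraries, read as single 75 nt reads per the labels' protocols. The genome build was GRCm38.p6 and the tools STAR, Trimmomatic 0.36, cutadapt 2.5, edgeR 3.28.1 and FastQC 0.11.8, per the submitters' processing notes. No counting tool, strand setting or rule for reads that match several genes is given in these sources. The deposited table holds whole-number counts per gene, not normalised, and RPKM values made by the authors. The deposited gene length equals the exon lengths summed over all transcripts plus 1 per exon line for 26228 of 27207 genes, so deposited RPKM understates genes with many transcripts.

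Counts were fitted with edgeR 4.0.16 in R 4.3.3 (filterByExpr, TMM, robust quasi-likelihood test) over all 9 libraries with a mean per group. Benjamini-Hochberg adjustment covered 19374 genes, with a threshold of 0.05. The common biological coefficient of variation was 0.15. The fit was checked on simulated counts. Correlations and ratios used log2 CPM with a prior count of 2. Alternatives were RLE and upper quartile factors, no filter, DESeq2 1.42.0, limma 3.58.1 on log2(RPKM + 1) and log2(RPKM + 0.1), the library number as a block, 2 groups alone, haemoglobin genes left out and each library left out.

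The 7 genes and the lists were chosen with earlier results of these data known. The text names the 7 genes, up to 4 called genes per list with the smallest p (or, with none called, up to 2 of the highest level), the 3 most alike genes and the nearest neighbours of each member, relatives set beside a member and Dnmt1. Lung markers check the tissue label. Foxd3 and Dbh were added after their values were seen. Some genes that the rule names are not reported here. The labels do not state that lungs came from separate litters, so p-values refer to the spread among these 9 samples, which may be technical. The number of replicates, 3 per group, limits the precision of each value, as do the low counts.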

Additional observations from a re-analysis of the deposited data

How the results depend on the processing

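The count of the 7 genes called ran from 4 to 5 in weak CKO and from 5 to 6 in strong CKO lungs over the alternatives run, and it stayed at 0 between strong and weak CKO. The log2 changes of the 7 genes kept their direction against wild type in every setting, although values on log2(RPKM + 1) are smaller by construction. Beside Prph and Stmn2, given with their values above, Elavl4 in strong CKO lungs changed side, at 1.39 (adjusted p = 0.0248) with the replicate block. Between strong and weak CKO, estimates near 0 turned sign in some settings: Cdh19 was -0.24 with the replicate block, and with 1 library left out Sox10 ran from -0.15 to 0.14, Cdh19 from -0.09 to 0.31, Elavl4 from -0.02 to 0.63 and Stmn2 from -0.44 to 0.01. The cause was not tested.

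Over all genes, 2803 were called in weak CKO lungs, 1310 to 2828 with 1 library left out, of which 1766 without WT_549_2, 1432 without MUT_W_265_2 and 1310 without MUT_W_268_3. In strong CKO lungs 4969 were called, 3101 to 4983 with 1 library left out, the lowest without MUT_S_265_5. Between strong and weak CKO 1 gene was called, 1 to 4 with 1 library left out, 3 with the replicate block, 4 with only these 2 groups in the fit, 14 by DESeq2 and 2 on log2(RPKM + 0.1). Pairs of genes with unequal change numbered 17, and 0 to 17 with 1 library left out. The samples were not treated as paired, because not every pair of libraries sharing a number correlated above 0.1 in its deviations: MUT_W_268_3, MUT_S_268_4 and WT_268_1 gave -0.0869, 0.083 and -0.000546 pair by pair, while MUT_W_265_2, MUT_S_265_5 and WT_265_1 gave 0.112 to 0.299 and MUT_W_549_3 with WT_549_2 gave 0.346. The replicate block called 3926 genes in weak CKO and 4450 in strong CKO lungs, and 5 and 6 of the 7 genes. With only weak CKO and wild type in the fit, 4082 genes were called with the block and 2054 without it. Wild-type levels of Sox10, Ngfr, Cdh19, Tubb3 and Prph rest on 4 to 16 reads per library, which limits the ratios.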
